A study of Mus musculus with 4 samples.

Results

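AB1-HA and LLC mouse tumor cells held under interferon gamma (IFN-γ) for 24 h were set against each other, as the LLC array minus the AB1-HA array, to describe the transcript levels that each reached under the same cytokine. A gene entered when its probe was well above background on at least 1 of the arrays of IFN-γ treated cells, which held for 13911 of the 20107 genes named on the array. AB1-HA is a BALB/c mesothelioma line engineered to express influenza hemagglutinin. LLC (3LL in the sample titles) is the Lewis lung carcinoma, with C57BL6 given as its strain. Each line was also cultured with vehicle for 24 h, and those arrays give the gap between the lines before the cytokine. The series title names as its aim a factor that suppresses what IFN-γ induces. With Cy3 labelled RNA on 1 array for each of the 4 groups, no difference has a replicate check, no test was possible, and values are sizes only. Line, tumor type and strain differ together between the arrays compared and cannot be told apart, and whether probes bind transcripts of both strains equally was not tested.

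IFN-γ binds a receptor of paired chains whose Janus kinases activate STAT transcription factors, which bind short palindromic elements in promoters and raise Irf1 and other secondary regulators. Those in turn switch on interferon-inducible GTPases, the machinery that loads peptides onto MHC class I, chemokines that draw T cells, and antiviral effectors. Many antiviral effectors also respond to type I interferon through a related complex that binds a longer element.

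Levels are log2 of the background-subtracted signal relative to each array's 75th percentile, so that 0 marks that percentile and 1 unit is 2-fold. Differences are LLC minus AB1-HA on this log2 scale. Where a gene was well above background on 1 array only, the difference is a bound, read as "at least". Per array, 22664 to 22947 of the 39429 gene probes passed the scanner's background flag, and 0 spots were saturated. Repeat spots of the same probe gave the difference with a median SD of 0.040 (235 probes), which covers spot noise only and not culture or labelling. Housekeeping genes differed by less than 2-fold in 17 of 17 cases, with a median difference of −0.02 and a range from −0.38 to 0.71.

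The labelled tumor types were met in part, and mesothelial markers pointed both ways. AB1-HA with IFN-γ had high Msln, which encodes the mesothelial surface protein mesothelin, at 4.77 against −4.80 in LLC, and Pdpn (podoplanin) at 2.74 against −7.21. Wt1, Upk3b, Upk1b, Calb2, Lrrn4 and Gpm6a, which also mark mesothelium, were not well above background on either array. Krt19 was also higher in AB1-HA, by 3.73-fold, but Bnc1, another mesothelial gene, was above background in LLC only (−0.33, at least 150.2-fold higher), and the keratins Krt8 and Krt18 were far higher in LLC. The summed signal of the 13 mesothelial markers was 35.7 times the 75th percentile in AB1-HA and 71.9 in LLC. Most of that sum came from a single gene in each line. In LLC it was Krt18 (6.04), a keratin of simple epithelia, and in AB1-HA it was Msln (4.77). The sums therefore do not rank the lines by mesothelial signal as a whole. Of 17 lung epithelial markers, 8 were dim on both arrays: the lung markers Sftpa1, Sftpb, Sftpc, Nkx2-1, Foxj1 and Cldn18 and the epithelial markers Epcam and Cdh1. Among the other 9, Hopx was above background in LLC only (−0.14, at least 130.3-fold higher), and Napsa in AB1-HA only (−1.93, at least 44.1-fold lower in LLC). Ager and Scgb1a1 were dim and just over 2-fold higher in LLC, and under it with normexp correction. Lamp3 (4.33 in AB1-HA and 4.58 in LLC), Abca3 (2.18 and 1.48), Trp63 (1.21 and 0.65) and Krt5 (−6.71 and −7.11) were within 2-fold. Another Trp63 probe, however, read a difference of −2.66. Sftpd was above background in AB1-HA only, with a bound of −0.50. Of 15 leukocyte markers on the array, 8 were not well above background on either array, Ptprc among them. The other 7 were above background on both arrays. They were Itgam (1.38 in AB1-HA and 1.19 in LLC), Cd14 (−0.65 and 0.00), Csf1r (−1.45 and −1.38), Nkg7, Cd3e, Fcer1g and Coro1a. The summed signal of the leukocyte list was 4.37 times the 75th percentile in AB1-HA and 4.41 in LLC.

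A difference could be given for 13907 members. Of these, 2137 were at least 2-fold higher in LLC (15.4%) and 1845 at least 2-fold lower (13.3%). The other 9925 were counted as within 2-fold. Here and in the counts below, that class includes bounds under 2-fold, although such genes may differ by more. The median difference was 0.03. A total of 12295 members were measured on both arrays, while 858 were above background in LLC alone and 754 in AB1-HA alone. Differences of at least 16-fold were reached by 441 members higher and 278 lower in LLC. Close to the 2-fold limit, 193 members in each direction lay between 1.0 and 1.1 on the log2 scale, and 232 higher and 265 lower ones lay between 0.9 and 1.0.

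**Figure D1:**
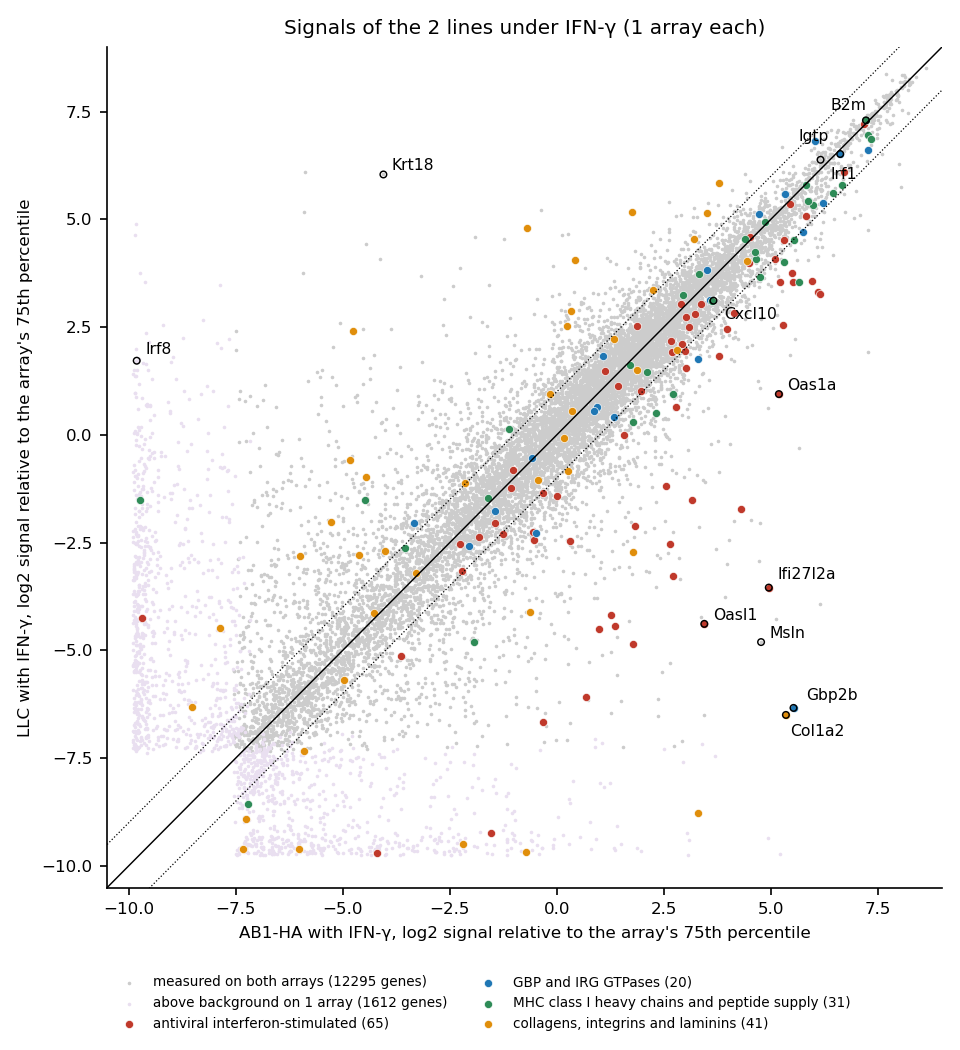
Log2 signal of each member under IFN-γ in AB1-HA (x axis) and LLC (y axis), relative to the 75th percentile of the array; each point is 1 gene on 1 array per line, colours mark gene lists, the solid line marks equal levels and the dotted lines 2-fold. Most GTPase and MHC class I genes lie inside the 2-fold lines, and 71.4% of all members were counted within 2-fold. Antiviral genes spread below the lines, and Krt18, Msln, Col1a2 and Gbp2b lie far from them.

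Fewer genes were 2-fold apart under IFN-γ than with vehicle. On the vehicle arrays, 2276 of 13826 genes were past 2-fold in favour of LLC (16.5%) and 2212 in favour of AB1-HA (16.0%). For 11998 genes all 4 arrays were above background, and their median absolute gap was 0.57 with vehicle and 0.48 with IFN-γ. Of the 3148 gaps of at least 2-fold with vehicle, 904 closed to under 2-fold (28.7%), 2240 were kept in the same direction and 4 turned, while 508 gaps opened. The 4 that turned were Ccl5, H2-Eb1, Hfe and Mlph.

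Immune genes were lower in LLC more often than all members were, while their gaps closed about as often. Over 17 immune lists together, 309 genes had a value, of which 92 were at least 2-fold lower in LLC (29.8%, against 13.3% of all members) and 45 higher (14.6%, against 15.4%). Their median difference was −0.32. The antiviral list, with 65 genes, held 39 of the 92 lower in LLC. Not every other list was lower more often than all members, as 0 of 17 receptor and JAK-STAT genes were. Of the 96 vehicle gaps in these 17 lists measured on all 4 arrays, 31 closed (32.3%), which is near the 28.7% over all genes. Gaps opened in 25 of the 242 immune genes measured on all 4 arrays, against 4.2% of all genes so measured.

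Genes higher with IFN-γ than with vehicle in both lines ended within 2-fold of each other less often than all members, of which 71.4% did. Of 246 members at least 2-fold higher with IFN-γ in both lines, 117 ended within 2-fold (47.6%), 89 lower in LLC and 40 higher. Of 155 members at least 4-fold higher with IFN-γ than with vehicle in both lines, 78 ended within 2-fold of each other (50.3%), 58 lower in LLC and 19 higher. Of the 55 members at least 16-fold higher in both, 35 ended within 2-fold (63.6%), 14 lower and 6 higher. These counts share the arrays of IFN-γ treated cells with the difference itself and are a description.

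Promoters of 6 genes are shown because they cover both outcomes under IFN-γ: Irf1, Igtp, Gbp2 and Cxcl10 ended within 2-fold, and Gbp2b and Oas1a remained lower in LLC. Each runs from 250 bases before to 50 after a transcription start, 5′ to 3′ on the gene's strand, from RefSeq on GRCm38.p6. Capitals mark a GAS-type element (TTCNNNGAA, the same on both strands) or an ISRE-type element (the half-site GAAA, any bases NN, and GAAA again, or TTTC, NN and TTTC for the other strand). The windows are chr11:53769764-53770063 (+) for Irf1, chr11:58199306-58199605 (+) for Igtp, chr3:142620413-142620712 (+) for Gbp2, chr3:142594597-142594896 (+) for Gbp2b, chr5:92348840-92349139 (−) for Cxcl10 and chr5:120907476-120907775 (−) for Oas1a. They come from the reference genome and were not read from either line.
Irf1: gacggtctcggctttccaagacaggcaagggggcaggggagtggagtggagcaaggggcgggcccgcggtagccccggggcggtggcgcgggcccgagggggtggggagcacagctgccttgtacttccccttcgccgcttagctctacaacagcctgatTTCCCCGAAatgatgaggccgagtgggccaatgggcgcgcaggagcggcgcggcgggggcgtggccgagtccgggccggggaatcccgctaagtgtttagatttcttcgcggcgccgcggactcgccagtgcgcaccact
Igtp: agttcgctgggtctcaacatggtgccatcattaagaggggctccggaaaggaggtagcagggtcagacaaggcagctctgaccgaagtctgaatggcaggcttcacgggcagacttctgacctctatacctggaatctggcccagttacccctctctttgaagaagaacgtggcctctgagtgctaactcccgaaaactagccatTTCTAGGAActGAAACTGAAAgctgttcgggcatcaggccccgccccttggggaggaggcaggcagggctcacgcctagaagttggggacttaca
Gbp2: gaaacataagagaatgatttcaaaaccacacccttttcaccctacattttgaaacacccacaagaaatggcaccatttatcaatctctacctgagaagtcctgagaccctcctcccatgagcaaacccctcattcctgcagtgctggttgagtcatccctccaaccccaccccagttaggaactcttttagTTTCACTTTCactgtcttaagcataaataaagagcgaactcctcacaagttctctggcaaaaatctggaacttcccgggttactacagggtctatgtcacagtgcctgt
Cxcl10: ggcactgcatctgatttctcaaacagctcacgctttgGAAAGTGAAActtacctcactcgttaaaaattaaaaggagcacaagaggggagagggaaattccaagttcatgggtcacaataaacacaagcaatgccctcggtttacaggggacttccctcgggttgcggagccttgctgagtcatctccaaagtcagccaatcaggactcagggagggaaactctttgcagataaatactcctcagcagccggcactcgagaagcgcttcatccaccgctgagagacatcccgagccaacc
Gbp2b: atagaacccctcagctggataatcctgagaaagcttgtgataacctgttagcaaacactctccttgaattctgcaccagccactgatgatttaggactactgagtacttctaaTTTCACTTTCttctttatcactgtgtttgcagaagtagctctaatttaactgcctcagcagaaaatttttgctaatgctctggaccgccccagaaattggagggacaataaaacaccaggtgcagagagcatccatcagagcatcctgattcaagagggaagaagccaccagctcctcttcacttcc
Oas1a: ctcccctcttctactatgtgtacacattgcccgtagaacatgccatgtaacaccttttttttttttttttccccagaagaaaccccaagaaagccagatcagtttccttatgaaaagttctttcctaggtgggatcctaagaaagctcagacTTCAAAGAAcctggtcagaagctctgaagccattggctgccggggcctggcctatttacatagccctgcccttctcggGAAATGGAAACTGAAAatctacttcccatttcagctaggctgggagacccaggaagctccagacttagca

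Both outcomes were found beside the same letters. The printed Irf1 window held a GAS-type match starting 90 bases upstream of the start. A window at another Irf1 start (chr11:53770223-53770522), not printed, held neither type. Igtp held a GAS-type and an ISRE-type match at 45 and 34 bases. Gbp2 and Gbp2b carried the same letters, TTTCACTTTC, at 59 and 137 bases upstream. The Oas1a window held a GAS-type match at 98 bases and overlapping ISRE-type matches at 20 and 14 bases. GAS-type letters were in the windows of 9.55% of 27025 genes and ISRE-type letters in 3.99%, counting a gene once if any of its windows matched. All promoter counts here and below leave out the windows of a single autosome. Among members, ISRE-type letters were in 3.74% of 11056, in 3.43% of those within 2-fold, in 6.09% of those at least 2-fold lower in LLC and in 3.23% of those higher. They were in 5 of 5 guanylate-binding protein genes with a window, 6 of 7 immunity-related GTPases and 24 of 52 antiviral genes. A match is a description of letters, and a window without one says nothing of a factor's binding.

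The receptor and its kinases were near equal between the lines. Ifngr1, the ligand-binding chain, read 1.50 with vehicle and 1.48 with IFN-γ in AB1-HA, and 1.96 and 1.55 in LLC. Ifngr2, the signalling chain, reached 0.02 in AB1-HA and 0.53 in LLC under IFN-γ, and the kinases Jak1 and Jak2 differed by 0.48 and −0.03. The median difference of 17 receptor and JAK-STAT genes was 0.15. Of these, 15 were within 2-fold, against 71.4% of all members, and 2 were at least 2-fold higher in LLC. Those 2 were Ifnar1, a chain of the type I interferon receptor (1.13; its other probes read from −0.27 to 0.13), and Stat4 (−6.76 in AB1-HA and −5.76 in LLC), which lay at the 2-fold limit. Scaling to array medians left 0 of the 17 past 2-fold, with Stat4 at 0.87 and Ifnar1 at 0.99, and normexp correction gave Stat4 0.12. Irf9, the DNA-binding partner in the type I interferon complex, read 0.53 and 3.06 in AB1-HA and −0.97 and 2.26 in LLC, so that a gap of −1.49 with vehicle was −0.79 with IFN-γ.

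Negative regulators were split. Socs1, the kinase inhibitor that IFN-γ itself induces, read 0.41 and 3.08 in AB1-HA with vehicle and IFN-γ, and 1.30 and 3.80 in LLC, a difference of 0.72. Usp18, which restrains type I interferon signalling, read −1.47 and 2.55 in AB1-HA and −5.50 and −1.19 in LLC, so it remained 13.4-fold lower in LLC. Adar, an RNA-editing enzyme, and Tnfaip3 (A20), an NF-κB inhibitor, were lower in LLC by differences of −1.53 and −1.31, and another Adar probe read −0.25 (mean over probes −0.89). Nfkbiz, an NF-κB cofactor, was higher in LLC, at −3.42 against −5.41, and under 2-fold with normexp (0.92). In all, 8 of 27 were at least 2-fold lower in LLC and 2 higher, against 13.3% and 15.4% of all members. The list median was −0.06.

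Transcription factors of the response included both equal and widely separated genes. Irf1, which drives much of the secondary response, read 1.72 and 6.16 in AB1-HA and 1.95 and 6.38 in LLC, a difference of 0.22 (its other, dimmer probe read −1.97). Batf2 differed by −3.13 with vehicle, at −3.33 in AB1-HA and −6.45 in LLC, and by 0.87 with IFN-γ, at 4.21 and 5.08. Nlrc5, the transactivator of MHC class I genes, closed from 1.42 to 0.30, again with a dimmer probe at −1.97.

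Other members of the family stayed apart. Irf8, best known from myeloid and B cells, was not well above background in AB1-HA on either array and read −0.30 with vehicle and 1.72 with IFN-γ in LLC, at least 622-fold higher under the cytokine. Batf3 reached −7.40 in AB1-HA and −2.49 in LLC, and Irf5 reached −4.66 and −1.62, differences of 4.91 and 3.04. Irf7, which amplifies type I interferon responses, ran the other way, at −2.34 and 0.36 in AB1-HA against −8.52 (below the background flag) and −2.61 in LLC, 7.79-fold lower. Ciita, which drives MHC class II genes, stayed below the background flag on all 4 arrays. Of 14 factors, 3 were at least 2-fold higher in LLC, 1 lower and 10 within 2-fold, near the 71.4% of all members within 2-fold.

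**Figure D2:**
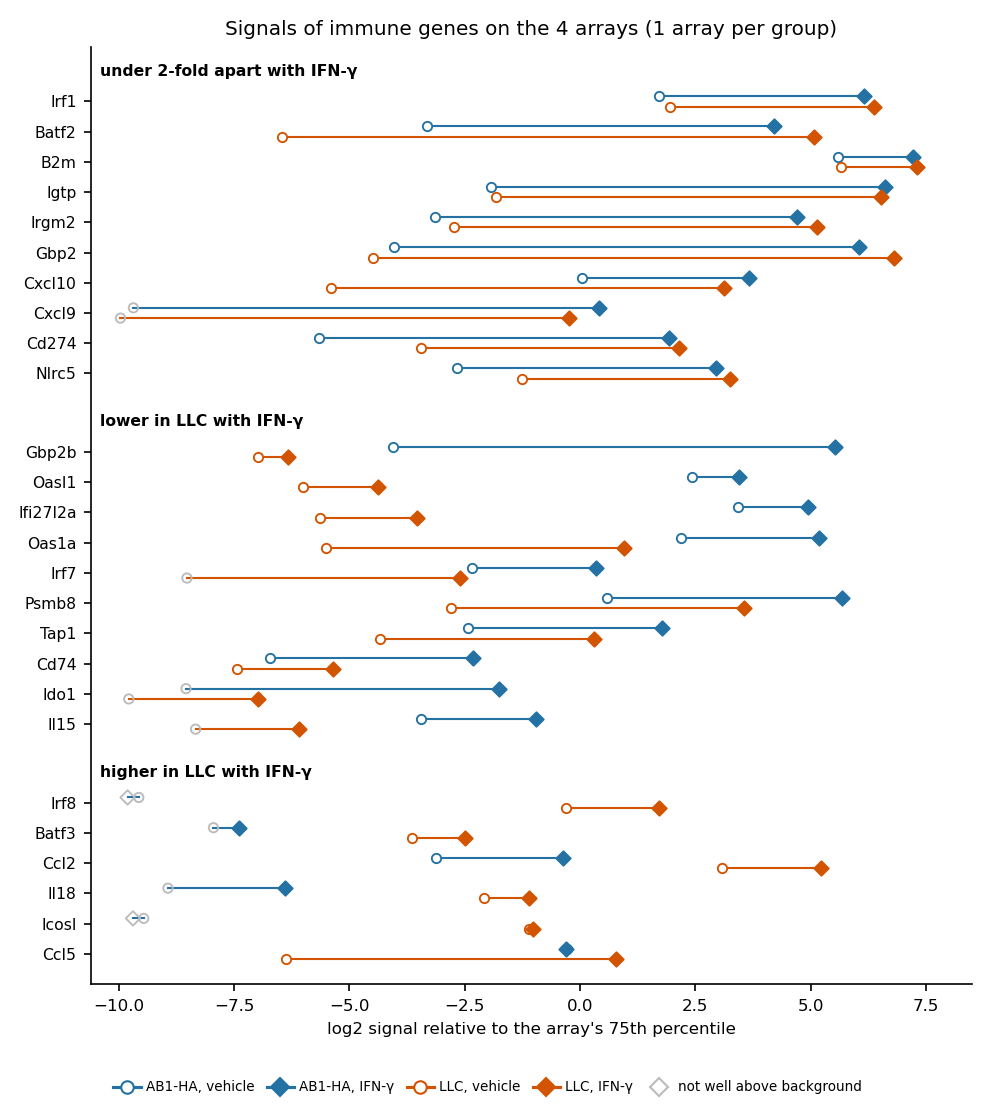
Log2 signal of 26 immune genes on the 4 arrays, relative to the 75th percentile of each; open circles are vehicle, filled diamonds IFN-γ, blue AB1-HA, orange LLC, and grey open symbols were not well above background. In the upper block both lines end side by side, in the middle block LLC ends lower, Gbp2b furthest at −6.33 against 5.53, and in the lower block LLC ends higher, Irf8 from 1 line only.

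Interferon-inducible GTPases, which attack the vacuoles of intracellular pathogens, were within 2-fold about as often as members in general. Igtp (Irgm3) read −1.92 and 6.62 in AB1-HA and −1.83 and 6.52 in LLC, a difference of −0.10. Gbp2 read −4.04 and 6.04 in AB1-HA and −4.49 and 6.81 in LLC, a difference of 0.76. Ifi47 (Irg47) was at 1.25 in AB1-HA and −3.82 in LLC with vehicle, and at 6.22 and 5.38 with IFN-γ, so that a gap of −5.07 shrank to −0.85. Of 10 immunity-related GTPases with a value, 8 were within 2-fold and 2 lower in LLC, with a median difference of −0.50. Of 10 guanylate-binding proteins, 7 were within 2-fold, 2 lower and 1 higher, with a median of −0.31. Over all members 71.4% were within 2-fold, with a median of 0.03.

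Gbp2b (also called Gbp1) was the exception and had the largest measured difference of any member lower in LLC. It read −4.05 with vehicle and 5.53 with IFN-γ in AB1-HA, and −6.97 and −6.33 in LLC. Under IFN-γ it was 3726-fold lower in LLC, against a gap of −2.92 with vehicle, and its other probe read −13.17. Gbp2, whose promoter is printed beside that of Gbp2b, lay on the other side of equality. GTPase families hold near-identical copies, so single values may include signal of a relative.

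MHC class I heavy chains, which present peptides to CD8 T cells, included several near-level genes. B2m, the shared light chain, read 5.60 and 7.22 in AB1-HA and 5.66 and 7.30 in LLC, a difference of 0.07. H2-D1 differed by −0.02 and H2-Q7 by 0.07, and H2-K1 closed from −1.55 to −0.87. In total 12 of 16 genes were within 2-fold, near the 71.4% of all members, and 2 were higher and 2 lower, with a median of −0.44. H2 genes are highly similar and differ between the strains, so their probes are uncertain.

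The widest gaps were in nonclassical genes, although others of that kind were within 2-fold, such as H2-T10 (−0.09), H2-T23 (−0.84) and Mr1 (0.92). H2-T24 read −5.80 and −1.93 in AB1-HA and −5.97 and −4.79 in LLC, a gap that opened from −0.17 to −2.86. H2-Q8 opened the other way, at −4.93 and −4.47 in AB1-HA and −5.40 and −1.50 in LLC, to 2.96. Cd1d1, which presents lipids to natural killer T cells, was above background in LLC only, at least 66.7-fold higher at −1.50. Another Cd1d1 probe gave 2.99.

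The peptide supply to class I was lower in LLC at several steps. Psmb8, an immunoproteasome subunit, read 0.58 and 5.67 in AB1-HA and −2.80 and 3.55 in LLC, 4.35-fold lower under IFN-γ. Tap1, a chain of the peptide transporter, read −2.43 and 1.79 in AB1-HA and −4.35 and 0.30 in LLC, 2.80-fold lower. Psmb9 was lower by −1.29 and Tapbpl, an editor of bound peptides, by −1.82. Psmb10, the remaining immunoproteasome subunit, reached 7.28 in AB1-HA and 6.96 in LLC. Of 15 genes, 6 were at least 2-fold lower in LLC and 1 higher (Lnpep, 1.26), against 13.3% and 15.4% of all members. Among the 6, Tap2 (−1.03) and Calr (−1.07) lay close to the 2-fold limit, and quantile normalization left 4 lower. The list median was −0.46.

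MHC class II genes were dim in both lines, and 5 of the 13 on the array were not well above background. Cd74, the invariant chain, read −6.71 and −2.33 in AB1-HA and −7.43 and −5.35 in LLC, so that a gap of −0.72 widened to −3.02. H2-Eb1 turned from 1.04 to −2.28, with −6.61 and −2.97 in AB1-HA and −5.58 and −5.25 in LLC, and was −0.82 with normexp background correction. Ctss, the protease cathepsin S, was above background only with IFN-γ, at −3.47 in AB1-HA and −6.37 in LLC, a difference of −2.90 that normexp reduced to −0.85. H2-DMb1, a peptide exchange factor, reached −1.97 and −0.54, a difference of 1.42, after a bound of 6.28 with vehicle.

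The T cell recruiting chemokines Cxcl10 and Cxcl9 ended within 2-fold. Cxcl10 read 0.04 with vehicle and 3.66 with IFN-γ in AB1-HA, and −5.39 and 3.12 in LLC, which took the gap from −5.43 to −0.55. Cxcl9 was not well above background with vehicle and reached 0.41 in AB1-HA and −0.23 in LLC. Ccl5 was at −0.27 and −0.30 in AB1-HA and went from −6.38 to 0.79 in LLC, so that the gap turned from −6.11 to 1.08. Scaling to array medians left Ccl5 at 0.95, under 2-fold. Cxcl16 was above background in LLC only, at −4.19, and 0.51 higher there with normexp.

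Several chemokines for monocytes and other leukocytes stayed apart. Ccl2 read −3.12 and −0.37 in AB1-HA and 3.07 and 5.22 in LLC, 48.3-fold higher under IFN-γ after a gap of 6.20 with vehicle. Ccl7, which shares a receptor with Ccl2, reached −5.63 in AB1-HA and −1.90 in LLC. Ccl17 ran the other way, at −2.13 and −6.39. Among 13 such chemokines, 6 were past 2-fold in favour of LLC and 3 in favour of AB1-HA, against 15.4% and 13.3% of all members. The list median was 0.64.

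Of 12 checkpoint and co-stimulatory ligands 9 ended within 2-fold, near the 71.4% of all members, 2 were higher in LLC and 1 lower. Cd274 (PD-L1), which inhibits T cells through PD-1, read −5.66 and 1.94 in AB1-HA and −3.45 and 2.15 in LLC, so that a gap of 2.22 became 0.21. Of 6 vehicle gaps measured on all 4 arrays, 5 closed on the probes used (Cd274, Cd80, Pvr, Tnfrsf14 and Cd276) and Tnfsf9 was kept at −2.09. Over all genes 28.7% of such gaps closed. Under IFN-γ, however, other probes read −2.49 for Cd80 and −1.19 for Tnfrsf14. Scaling to array medians put Pvr at −1.105, past 2-fold. Icosl, a co-stimulatory ligand, was above background in LLC only, at −1.02 and at least 93.0-fold higher. Vsir (VISTA) was likewise above background in LLC only, at −3.29, with a difference of 0.997 under normexp.

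Several ligands of natural killer receptors and adhesion molecules stayed apart. H60b, a ligand of the activating receptor NKG2D, read 2.89 and 0.79 in AB1-HA and stayed below the background flag in LLC, at least 327-fold lower. Ulbp1, another such ligand, reached −3.26 in AB1-HA and −6.99 in LLC, while Raet1e was higher in LLC, at 0.71 and 2.69. Alcam and Ncam1, both adhesion molecules, were above background in LLC only, at −0.11 and −0.48. In all 7 of 14 were at least 2-fold higher in LLC and 2 lower, against 15.4% and 13.3% of all members. The list median was 1.04.

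Antiviral interferon-stimulated genes were mostly lower in LLC. Among 65 with a difference or bound, 39 lay 2-fold or more below AB1-HA, 1 was higher (Cmpk2, 0.38 with normexp) and 25 were within 2-fold, where 13.3% of all members were lower. Their median difference was −1.48. On the vehicle arrays it was −1.57 with 33 of 59 lower, against 16.0% of all genes. Of 28 vehicle gaps measured on all 4 arrays, 6 closed and 22 were kept, where 28.7% of such gaps closed over all genes. The vehicle and IFN-γ comparisons share no array.

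Several of these genes were already high in AB1-HA with vehicle. Ifi27l2a read 3.43 and 4.95 in AB1-HA and −5.64 and −3.54 in LLC, 361-fold lower under IFN-γ. Oasl1, a sensor-like relative of the oligoadenylate synthetases, read 2.43 and 3.45 in AB1-HA and −6.00 and −4.38 in LLC, 228-fold lower. Oas1a, which starts RNA decay on sensing double-stranded RNA, read 2.20 and 5.19 in AB1-HA and −5.52 and 0.95 in LLC, 18.9-fold lower after a gap of −7.72.

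Further genes ended lower in LLC from other starting levels. Ifit1, which binds viral RNA ends, read −1.45 and 1.79 in AB1-HA and reached −4.86 in LLC, 100.4-fold lower. Rsad2 (viperin) read −4.12 and −0.32 in AB1-HA and reached −6.66 in LLC, a difference of −6.34. Isg15, a ubiquitin-like modifier, read 2.33 and 5.98 in AB1-HA and −1.51 and 3.57 in LLC, 5.30-fold lower. Ifi202b, from the family of DNA sensors around Aim2, was the brightest member above background in AB1-HA only, at 5.21 and at least 7026-fold lower in LLC.

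A further set of antiviral genes was level under IFN-γ. Parp10 reached 5.45 in AB1-HA and 5.36 in LLC, Trim25 4.51 and 4.60, and Sp110 7.17 and 7.21, although dimmer Sp110 probes read from −2.40 to −1.65. Among the genes closed within 2-fold were Nmi (from 1.55 to 0.12) and Xaf1 (from −2.95 to −0.82, with another probe at 1.43). ISRE-type letters were in the promoter windows of 18 of 31 antiviral genes at least 2-fold lower in LLC and of 6 of 20 within 2-fold.

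**Figure D3:**
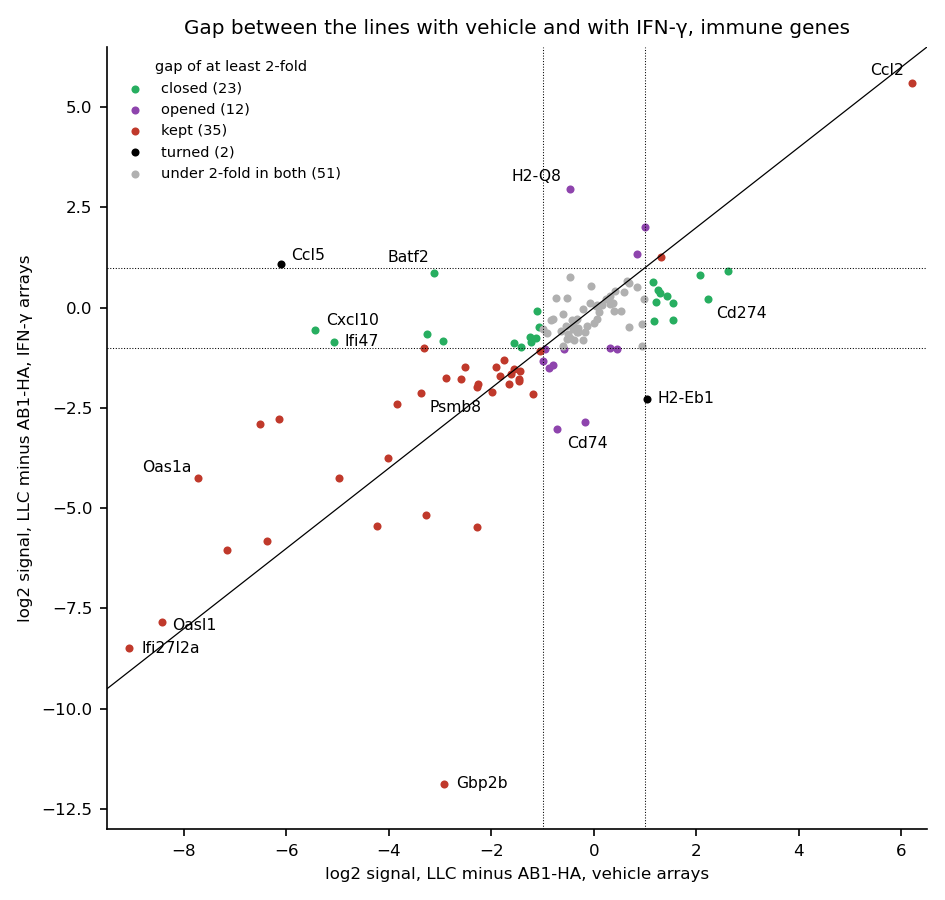
Gap between the lines (log2 signal, LLC minus AB1-HA) on the vehicle arrays (x axis) and the IFN-γ arrays (y axis) for 123 genes of 10 immune lists well above background on all 4 arrays; each point is 1 gene, dotted lines mark 2-fold and the solid line an equal gap. Of these genes 23 closed, 12 opened, 35 kept and 2 turned their gap. Over all 11998 genes on 4 arrays, 7.5% closed, 4.2% opened, 18.7% kept and 0.03% turned it. Cxcl10 and Ifi47 lie near 0 on the y axis after wide vehicle gaps, and Ifi27l2a and Oasl1 lie near the line of equal gaps.

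Cell death genes held wide gaps in both directions. Ripk3, the kinase of necroptosis, read 1.21 and 1.26 in AB1-HA and −4.97 and −5.02 in LLC, 77.9-fold lower, while its substrate Mlkl was level at 3.84 and 3.85 with IFN-γ. Casp1, the inflammasome caspase, was 12.6-fold lower in LLC, and Nlrp3, an inflammasome sensor, reached −2.56 in AB1-HA and −7.24 in LLC. Pmaip1 (Noxa) was above background in LLC only, at −0.82. Of 28 genes, 7 were lower and 4 higher, against 13.3% and 15.4% of all members. The list median was −0.37.

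Sensors and complement genes were more often lower than higher in LLC. Cgas, the DNA sensor, read 1.20 and 1.42 in AB1-HA and −4.95 and −4.70 in LLC, 69.3-fold lower, with other probes from −3.40 to −2.32. Serping1, the C1 inhibitor, went from −4.52 to 1.50 in AB1-HA and reached −6.17 in LLC, a difference of −7.67. Tlr3 opened from −0.90 to −3.02. C3 and C4b were near level, at 0.04 and −0.13. Of 23 genes, 7 were at least 2-fold lower in LLC and 2 higher, against 13.3% and 15.4% of all members.

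Cytokine genes differed in both directions. Il15, which sustains natural killer and memory T cells, read −3.45 and −0.94 in AB1-HA and −8.33 (below the background flag) and −6.08 in LLC, 35.3-fold lower under IFN-γ. Il7 reached 0.25 in AB1-HA and −7.07 in LLC. Il18, an inducer of IFN-γ in lymphocytes, reached −6.39 in AB1-HA and −1.09 in LLC, 39.1-fold higher, and Il11 reached −2.03 and 2.73. Of 24 genes, 5 were higher and 5 lower, against 15.4% and 13.3% of all members.

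Enzymes that act on amino acids and nucleotides were split. Ido1, which degrades tryptophan, was not well above background with vehicle and reached −1.75 in AB1-HA and −6.98 in LLC, 37.3-fold lower. Acod1, which makes itaconate, was 5.33-fold lower in LLC. Wars, the tryptophan tRNA synthetase, read 4.21 and 6.94 in AB1-HA and 4.18 and 5.04 in LLC, which opened a gap from −0.03 to −1.90. Nt5e (CD73), which makes adenosine, was above background in LLC only, at −2.34. Nos2 closed from −1.08 to 0.78.

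**Figure D4:**
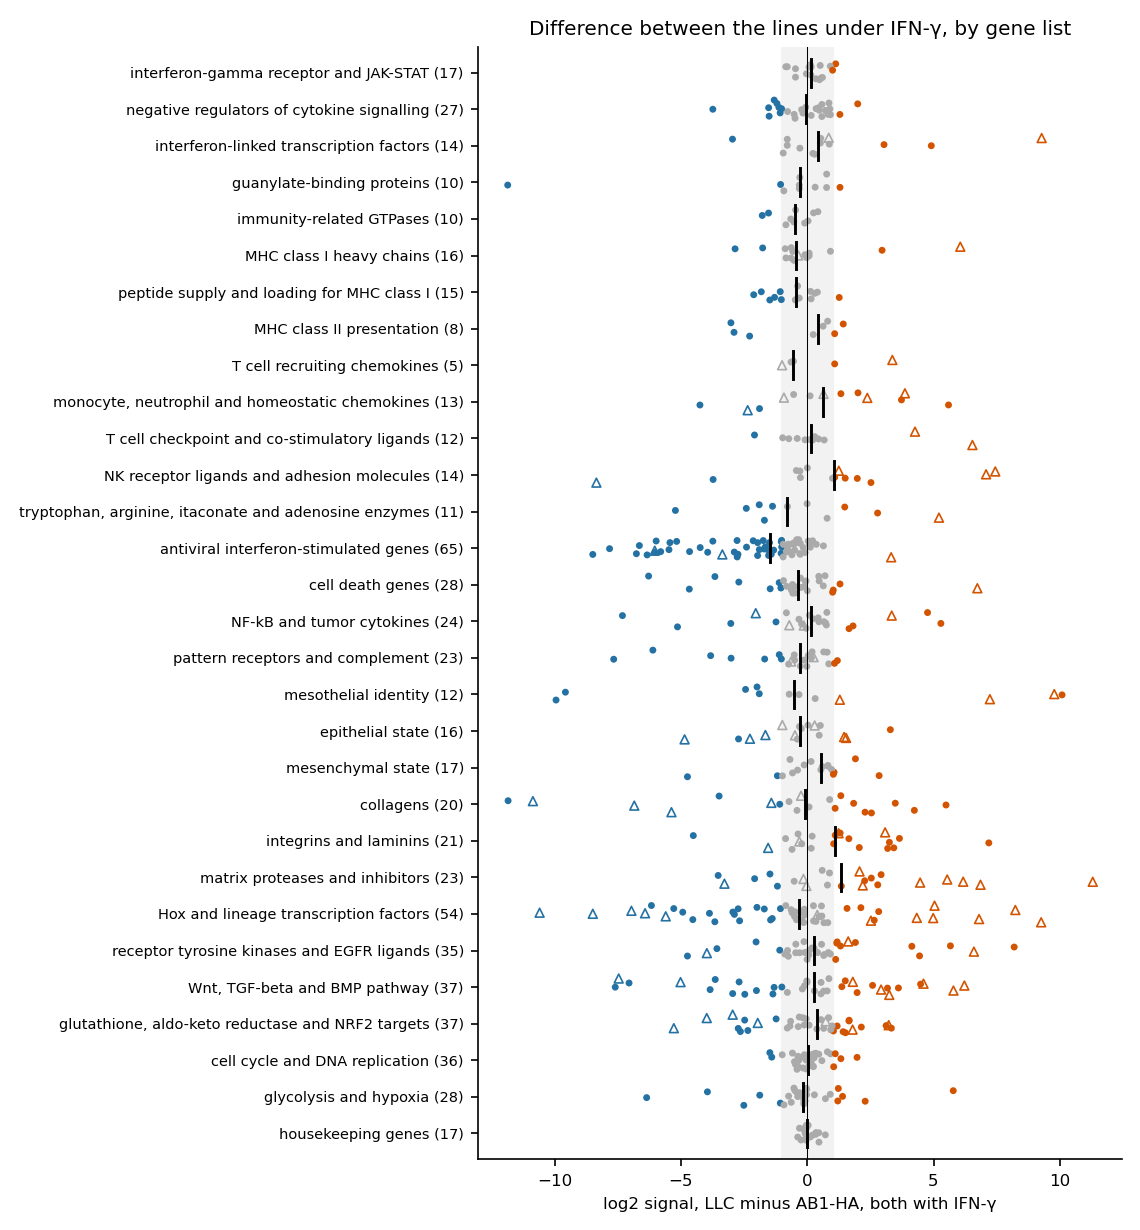
Difference between the lines under IFN-γ (log2 signal, LLC minus AB1-HA) for every gene with a value in 30 lists; circles are measured on both arrays, triangles are bounds, black bars are list medians, the grey band marks under 2-fold, and counts of genes stand in parentheses. The antiviral list has its median at −1.48, integrins and laminins at 1.11 and housekeeping genes at −0.02.

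Genes of cell identity kept wide gaps with and without the cytokine. Krt18, a keratin of simple epithelia, read −2.53 and −4.05 in AB1-HA and 6.39 and 6.04 in LLC, 1090-fold higher under IFN-γ, and its partner Krt8 was at least 879-fold higher. Msln read 5.19 and 4.77 in AB1-HA and −3.37 and −4.80 in LLC, 765-fold lower, and Pdpn was 989-fold lower (another probe read −5.14). Vim, a mesenchymal filament gene, was level at 6.71 and 6.85. Of 12 mesothelial genes with a value, 4 were higher and 5 lower in LLC, against 15.4% and 13.3% of all members.

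**Figure D5:**
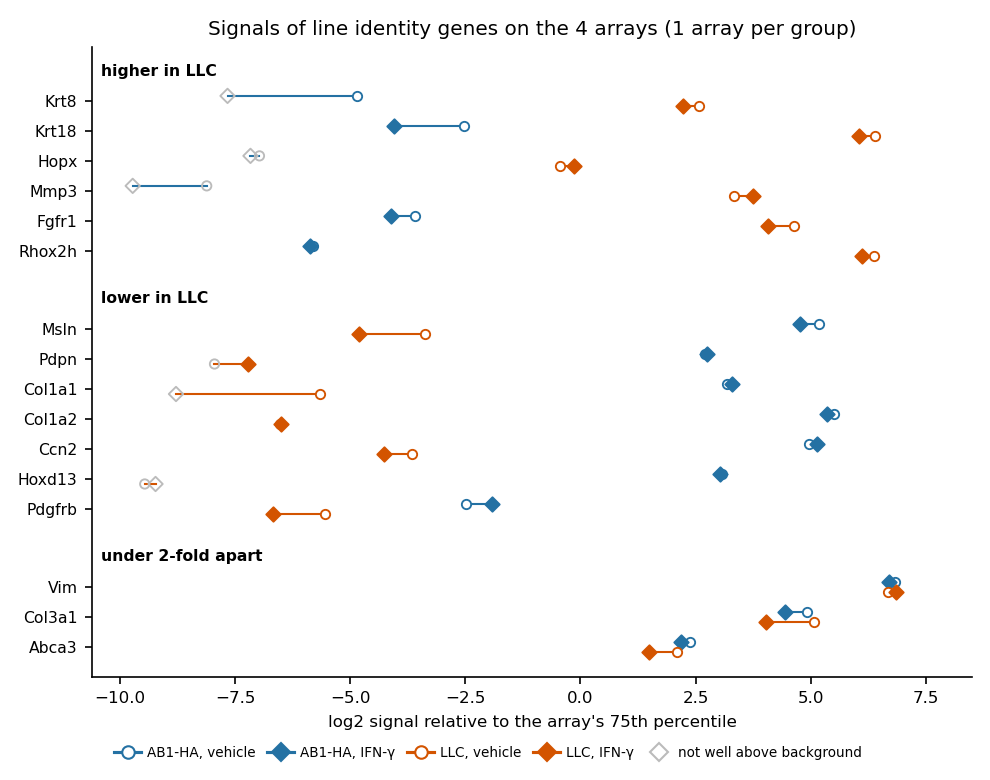
Log2 signal of 16 line identity genes on the 4 arrays, relative to the 75th percentile of each; symbols are as for immune genes, with open circles for vehicle and filled diamonds for IFN-γ. The gap between the lines is wide with both treatments for the genes in the upper blocks, and Vim, Col3a1 and Abca3 lie within 2-fold.

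Matrix genes divided by subtype. Col1a2, a chain of fibrillar collagen I, read 5.51 and 5.35 in AB1-HA and −6.51 and −6.49 in LLC, 3687-fold lower, and Col1a1 was at least 1865-fold lower. Col3a1, also fibrillar, reached 4.44 and 4.04. Several basement membrane genes were higher in LLC, with Col18a1 at −0.70 and 4.80, Lama5 at 0.42 and 4.07 and Col4a1 at 0.34 and 2.88. Of 20 collagens 8 were higher and 7 lower, against 15.4% and 13.3% of all members. The fibroblast markers Lum, Thy1, Postn and Fap were not well above background on either IFN-γ array. Acta2 and Pdgfra were higher in LLC (2.84 and 1.91), and Pdgfrb was lower (−4.75). The summed signal of 11 fibroblast markers was 73.1 times the 75th percentile in AB1-HA and 17.8 in LLC. That sum includes Col3a1 and both collagen I chains, so it partly repeats the collagen values. A part of fibroblast-like expression in the matrix differences was not tested.

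Receptors for matrix and the enzymes that cut it leaned to LLC. Of 21 integrins and laminins, 12 were at least 2-fold higher in LLC and 2 lower, against 15.4% and 13.3% of all members. The list median was 1.11, with Itga7 foremost at −4.77 and 2.42. Of 23 matrix proteases and inhibitors, 12 were higher and 5 lower, against the same shares of all members. Mmp3 (stromelysin) was not well above background in AB1-HA and reached 3.75 in LLC, at least 2529-fold higher, and Mmp13, a collagenase, reached −0.70 in LLC only.

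Positional and lineage factors gave each line its own set. Of 54 with a value, 20 were lower in LLC and 11 higher, against 13.3% and 15.4% of all members. Hoxd13, at 3.04, Hoxd11, at −0.60, and Sox2, at 0.93, were above background in AB1-HA only. Foxa2, a factor of endodermal epithelia, at 1.70, and Sox9, at 0.68, were above background in LLC alone under IFN-γ. Hoxa7, Hoxd4 and Hoxd9 differed by −0.11, −0.14 and −0.14.

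Growth factor pathways also differed by gene. Fgfr1 read −3.60 and −4.12 in AB1-HA and 4.63 and 4.07 in LLC, but its other probes gave differences from 0.16 to 6.79. Areg, an EGFR ligand, moved from 2.55 with vehicle to 4.45 with IFN-γ as AB1-HA went from −1.97 to −3.82. Inhba, the activin subunit, reached 3.38 in AB1-HA and −4.23 in LLC, and Wnt7b was above background in LLC only, at −1.34. Cell cycle genes were near level, with 30 of 36 within 2-fold, against 71.4% of all members.

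Very large differences also lay outside the immune lists. Rhox2h, a homeobox gene of the X-linked reproductive cluster, read −5.81 and −5.87 in AB1-HA and 6.38 and 6.11 in LLC, 4035-fold higher under IFN-γ, and Rhox2e and Rhox2c followed, although these copies share sequence. Ano1, a chloride channel, reached −7.50 in AB1-HA and 2.41 in LLC, and Rbp4, the retinol carrier, was at least 4691-fold higher. Lower in LLC were Chil3, a chitinase-like protein, at 6.14 and −3.92, Ccn2, a matrix-associated growth regulator, at 5.13 and −4.27, and Stmn2, a neuronal microtubule regulator, at least 5828-fold. With vehicle, Ano1 differed by 9.95, Chil3 by −10.48 and Ccn2 by −8.62.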

How the data were processed

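RNA of AB1-HA and LLC cells after 24 h of vehicle or IFN-γ was measured on 4 one-colour Agilent arrays of 1 slide, 1 array per group. The deposited intensity files come from Agilent's Feature Extraction (10.7.1.1 per the file headers) and hold background-subtracted signals. The deposited value table holds log2 values made by the authors in a way not given in the sources used here; it followed the scanner's log2 signals centred per probe (r of 0.999 to 1.000 per array), and its column medians ran from −0.13 to 0.11.

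Control and outlier spots (166 to 201 per array) were left out, spots of a probe averaged, and log2 values taken relative to the 75th percentile over gene probes. Probes were named by accession through RefSeq (26581 of 39429), and a gene was represented by its brightest probe on average across arrays. A bound was taken against the higher of the dim probe's own signal and that array's lowest flagged-present signal (7.01 to 8.26 intensity units, with 75th percentiles of 1380 to 1598). Genes were called at 2-fold, and 14 had probes past it in opposite directions.

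Members and lists were chosen with earlier results of these data known. The text names the 15 largest measured differences and 8 brightest bounds per direction, the 10 largest losses and gains of gap, the 5 largest and 3 smallest differences of each of 31 lists, and fixed pathway genes, and draws on these. Aim2, Cmpk2, Cd276, Hfe, Isg15, Mlph, Nmi, Psmb10, Raet1e, Xaf1, Hopx, Abca3, Irgm2, Col4a1, Hoxd9, Krt19 and the lung markers Ager, Krt5, Lamp3, Napsa, Scgb1a1, Sftpd and Trp63 were chosen after their values were seen. Python 3.11.15 (numpy 2.4.6, pandas 2.3.3, matplotlib 3.10.9) and R 4.3.3 with limma 3.58.1 were used. Alternatives covered scaling, background correction (normexp with offset 50, on median spot signals), the deposited value table, filters, probe choice and outlier spots.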

Additional observations from a re-analysis of the deposited data

How the results depend on the processing

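No paired analysis was possible because each group held 1 array. The counts of genes past 2-fold (2137 higher and 1845 lower in LLC) ran from 1360 to 2666 and from 1210 to 2366 over the 9 alternatives. With normexp background correction 1360 genes were higher, 1210 lower and 1 gap turned. With no background filter 1681 gaps closed, 1124 opened, 3835 were kept and 69 turned. The count of antiviral genes lower in LLC stayed between 34 and 41. The 190 genes past 2-fold among those the rule names or the text describes kept their direction under each alternative that gave them a value, and normexp left 171 of them past 2-fold. Of those described, normexp took Stat4, Nfkbiz, Ctss, H2-Eb1, Cxcl16, Vsir, Cmpk2, Mlph (−0.35), Ager (0.84) and Scgb1a1 (0.17) under 2-fold. The mean over probes did so for Ifnar1 (0.33) and Adar, and array medians for Ccl5, Ifnar1, Stat4 and Ager. Ager lay under 2-fold with quantile normalization too (0.98), and Stat4 with quantile (0.88) and loess (0.95) normalization, the value table and outlier spots kept. Scaling to array medians shifted the median of all genes from 0.03 to −0.10. Single arrays and dim signals limit what can be told: bounds fall with the background setting, and the cause of these shifts was not tested.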
